A study of Rattus norvegicus with 8 samples.

Results

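The genes described here are 10 rat genes of Leydig cell steroidogenesis: Star, Cyp11a1, Cyp17a1, Hsd3b1, Hsd17b3, Insl3, Lhcgr, Nr5a1, Scarb1 and Fdx1. They were found by matching the accession of each probe to the RefSeq gene table, which gave 11 probes among 17998 named probes and 10 genes among 15154 named genes. RNA came from CD9-positive cells sorted from dissociated testes of Sprague-Dawley rats, all of which carried a GFP transgene described as germ cell-specific. The cells came from aged rats (21 months, 4 arrays) and from young rats (4 months, 4 arrays), and every sample was hybridised to a one-colour Agilent array. The promoter of the transgene is not given in the sources used here, nor is it stated whether the 4 arrays of a group came from separate animals, so p-values measure only the spread between these arrays, which may be technical.

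Leydig cells lie between the seminiferous tubules and make testosterone under the control of luteinising hormone. The hormone binds the receptor Lhcgr, raises cyclic AMP and activates protein kinase A. STAR then moves cholesterol, part of which enters the cell through the lipoprotein receptor SCARB1, into mitochondria, where CYP11A1 cleaves its side chain with electrons passed from ferredoxin reductase through FDX1. HSD3B1, CYP17A1 and HSD17B3 carry the product on to testosterone, the orphan nuclear receptor NR5A1 binds promoters of many of these genes, and INSL3 is a peptide hormone that Leydig cells secrete. FDX1 and SCARB1 are made by many other cell types as well, and NR5A1 is also found in Sertoli cells, while the other genes are largely restricted to Leydig cells in the testis.

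CD9 marks spermatogonia, and the sort was meant to yield germ cells. Cd9, the undifferentiated spermatogonia genes Zbtb16 and Gfra1 and the germ cell helicase Ddx4 were well above background on all 4 aged and all 4 young arrays, and Id4 on 2 aged and 4 young arrays. Of 16 undifferentiated spermatogonia genes with a probe, 14 were bright enough to be tested, while Thy1 and Pax7 were above background on 0 arrays. All 15 spermatocyte and all 15 spermatid genes with a probe were also bright enough, so these markers do not show that the cells were spermatogonia alone. Among the 8 genes other than Fdx1 and Scarb1, called restricted here, 4 were well above background on every array as well: Insl3, Hsd3b1, Cyp17a1 and Hsd17b3. Cyp11a1 was above background on 4 aged and 3 young arrays, on aged array 2 in 1 of 2 spots. Star reached that level on 0 aged and 1 young array and Nr5a1 on 1 aged and 0 young arrays, in each case in 1 of 2 spots, and Lhcgr on none of either group. The defining markers of Leydig cells were therefore present in part, with the receptor for luteinising hormone not measurable on any array. In bulk RNA of this kind, fewer cells of a type and less RNA per cell cannot be told apart.

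Promoter sequences from RefSeq (build GRCr8) were found for 7 of the 10 genes. Those of 3 genes whose values moved together across the arrays (Cyp11a1, Hsd3b1 and Insl3) and that of Fdx1, whose values did not move with them, are printed here. Each runs 5′ to 3′ on the gene's own strand from 250 bases before to 50 bases after the gene start. Capitals mark AGGTCA, the core motif shared by many nuclear receptors, or AAGGCCA, a variant of the NR5A1 motif, read on either strand.
Cyp11a1 (chr8:67318415-67318714, plus strand): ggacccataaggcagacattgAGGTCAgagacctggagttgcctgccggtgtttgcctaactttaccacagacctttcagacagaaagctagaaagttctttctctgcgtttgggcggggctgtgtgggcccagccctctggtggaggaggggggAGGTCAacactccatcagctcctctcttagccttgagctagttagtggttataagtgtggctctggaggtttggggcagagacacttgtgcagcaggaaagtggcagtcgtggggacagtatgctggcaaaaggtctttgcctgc
Hsd3b1 (chr2:188864645-188864944, minus strand): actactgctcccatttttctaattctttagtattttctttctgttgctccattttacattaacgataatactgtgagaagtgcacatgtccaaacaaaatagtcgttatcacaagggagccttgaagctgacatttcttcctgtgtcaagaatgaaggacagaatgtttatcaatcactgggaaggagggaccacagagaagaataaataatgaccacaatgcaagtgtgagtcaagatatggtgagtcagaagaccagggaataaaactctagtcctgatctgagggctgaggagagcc
Insl3 (chr16:18432939-18433238, plus strand): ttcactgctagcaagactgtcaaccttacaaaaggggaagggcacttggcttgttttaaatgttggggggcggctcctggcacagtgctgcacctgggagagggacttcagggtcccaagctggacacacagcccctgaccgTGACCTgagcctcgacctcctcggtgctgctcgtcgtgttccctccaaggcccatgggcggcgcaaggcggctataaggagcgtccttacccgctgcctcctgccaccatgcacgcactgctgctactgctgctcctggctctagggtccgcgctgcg
Fdx1 (chr8:61183596-61183895, minus strand): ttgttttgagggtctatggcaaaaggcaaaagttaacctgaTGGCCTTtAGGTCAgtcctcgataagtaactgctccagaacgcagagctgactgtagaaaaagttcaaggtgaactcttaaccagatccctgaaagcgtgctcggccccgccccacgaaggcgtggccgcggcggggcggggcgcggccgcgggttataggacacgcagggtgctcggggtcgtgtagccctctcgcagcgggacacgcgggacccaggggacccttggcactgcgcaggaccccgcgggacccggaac

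The full NR5A1 motif AAGGTCA, the GATA motif AGATAA and the cyclic AMP response element TGACGTCA, each searched on both strands, were in 0 of the 7 promoters. Those motifs were in 4.61%, 11.6% and 1.83% of the 33469 promoters of the table. The shorter AGGTCA, which AAGGTCA contains, was in 5 of the 7 promoters and in 16.2% of all promoters. AAGGCCA was in 1 of the 7 and in 6.27% of all. Both of these were added after the sequences and the array values had been seen, so their counts are descriptions only. In the printed windows AGGTCA begins 229 and 95 bases before the start of Cyp11a1, 201 bases before that of Fdx1 and, on the opposite strand, 108 bases before that of Insl3. It also lies 133 bases before the start of Lhcgr and 17 bases into Hsd17b3, while the windows of Hsd3b1 and Nr5a1 hold no copy of it.

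None of the 7 genes that could be tested differed between aged and young cells at an adjusted p under 0.05 (limma), against 0.655% of the 10236 genes tested. At an unadjusted p under 0.05 the count was 1 of 7, Fdx1, against 31.4% of all genes. The aged mean was lower for 3 of the 7 (Cyp17a1, Hsd3b1 and Insl3), a share of 42.9%, against 36.6% of all genes. Under scaling to spike-in RNA the count was 6 of 7, but that scaling also moved the median over all genes to −0.30. With scaling to the 75th percentile, the median change of the 7 was 0.05 on the log2 scale, aged minus young. The median over all genes was then 0.11. All values below are log2 signals relative to the 75th percentile of the array's probes, so that 0 is the signal of a probe at that percentile. Signals of different probes are not on one scale, and each gene or list of genes is compared only with itself across arrays.

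**Figure D1:**
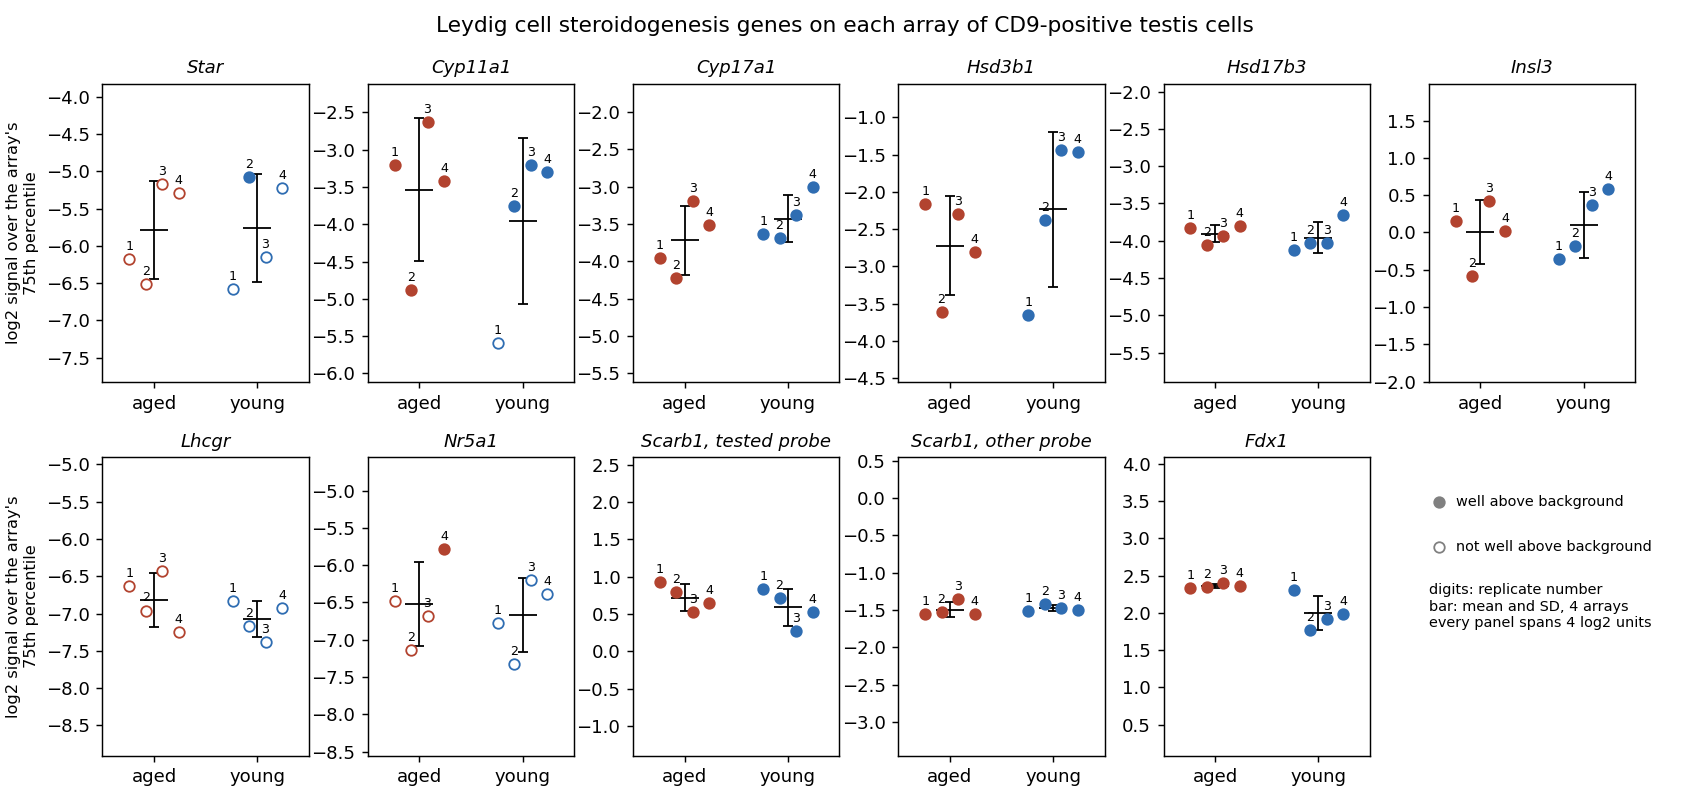
Log2 signal over each array's 75th percentile (vertical axes) for the 11 probes of the 10 genes, aged arrays left and young arrays right, with filled points well above background, open points not, and bars for the mean and SD of 4 arrays. Cyp11a1, Hsd3b1 and Insl3 are lowest on aged array 2 and young array 1, and the aged and young values of Fdx1 do not overlap.

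Cyp11a1, which starts steroid synthesis from cholesterol, stood at −3.20, −4.88, −2.63 and −3.42 on aged arrays 1 to 4 and at −5.59, −3.75, −3.20 and −3.30 on young arrays 1 to 4. One array of each group, aged 2 and young 1, lay far below the others, and the groups overlapped over most of their range. The aged mean was −3.54 ± 0.96 and the young mean −3.96 ± 1.12 (SD, n = 4 each), a difference of 0.43 ± 0.60 (SE; 95% interval −0.93 to 1.78; limma adjusted p = 0.643). On young array 1 neither spot was well above background, and without that array the difference was −0.12, while without aged array 2 it was 0.88. On aged array 2 only 1 of 2 spots was well above background. The 2 spots differed there by 1.25 on the log2 scale, against a median of 0.23 over arrays, so that value is poorly fixed.

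Hsd3b1, the enzyme that turns pregnenolone into progesterone, had values of −2.16, −3.62, −2.30 and −2.81 on the aged arrays and −3.65, −2.38, −1.44 and −1.46 on the young arrays. Young arrays 3 and 4 were higher than every aged array, but young array 1 was lower than every aged array. The mean was −2.72 ± 0.66 in aged cells and −2.23 ± 1.04 in young cells (SD, n = 4 each). The difference of −0.49 ± 0.51 (SE; 95% interval −1.63 to 0.66) had a limma adjusted p of 0.524. It was −0.96 without young array 1 and −0.19 without aged array 2, and neither passed the test.

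The Hsd3b genes form a family of close copies, and probes for them may share target sequence, so the values of Hsd3b1 are uncertain in that respect; whether its probe bound other copies was not tested. Hsd3b3 was above background on 3 aged and 3 young arrays and fell short on aged array 2 and young array 1, the arrays on which Hsd3b1 was also lowest. Its signal was −4.75, −5.86, −4.66 and −4.66 on the aged arrays and −6.87, −4.46, −4.14 and −4.14 on the young arrays. Hsd3b2 and Hsd3b7 were above background on 0 arrays of either group, and Hsd3b5 on 0 aged and 1 young array.

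Cyp17a1 carries the 17α-hydroxylase and 17,20-lyase steps on the way to androgens. It measured −3.95, −4.23, −3.19 and −3.51 on the aged arrays, against −3.64, −3.68, −3.38 and −3.01 on the young arrays. Aged arrays 1 and 2 were below all young arrays, and aged arrays 3 and 4 lay within the young range. Its means were −3.72 ± 0.46 in aged and −3.43 ± 0.31 in young cells (SD, n = 4 each), with a difference of −0.29 ± 0.24 (SE; 95% interval −0.84 to 0.25; limma adjusted p = 0.416). The 2 spots of this probe differed by as much as 1.25 on the log2 scale on young array 1, against a median of 0.23 over arrays, so its value there is poorly fixed. Leaving out 1 array gave −0.47 (without aged array 3) to −0.12 (without aged array 2), and spike-in scaling gave −0.70.

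Hsd17b3, the testicular enzyme that reduces androstenedione to testosterone, had the smallest spread over arrays of the 5 restricted genes tested. Its values were −3.83, −4.06, −3.93 and −3.81 on the aged arrays and −4.13, −4.03, −4.03 and −3.66 on the young arrays, a spread of 1.39-fold over all 8. The means, −3.91 ± 0.12 in aged and −3.96 ± 0.21 in young cells (SD, n = 4 each), differed by 0.05 ± 0.13 (SE; 95% interval −0.24 to 0.35; limma adjusted p = 0.795). On a linear scale that interval runs from 0.848-fold to 1.27-fold. The 2 spots of its probe differed by a median of 0.45 on the log2 scale over arrays. That is close to the gap of 0.47 between its lowest and highest arrays, so its pattern over arrays is poorly fixed. Aged array 2 and young array 1 were the lowest of their groups here too.

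Insl3 was measured at 0.16, −0.59, 0.43 and 0.02 on the aged arrays and at −0.36, −0.18, 0.37 and 0.58 on the young arrays. Aged array 2 and young array 1 were again the lowest of their groups, and the groups overlapped throughout. The aged mean of 0.0049 ± 0.43 and the young mean of 0.10 ± 0.44 (SD, n = 4 each) differed by −0.10 ± 0.26 (SE; 95% interval −0.70 to 0.50; limma adjusted p = 0.818). The 2 spots of the Insl3 probe agreed within 0.12 on every array, far less than the gap of 1.17 between its lowest and highest arrays.

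Star, Lhcgr and Nr5a1 did not pass the filter on dim probes and have no level to compare. Their signals ranged from −6.51 to −5.17 in aged and from −6.58 to −5.07 in young cells for Star, the mitochondrial cholesterol carrier. For Lhcgr the range was −7.24 to −6.44 in aged and −7.38 to −6.83 in young cells, and for Nr5a1 −7.14 to −5.79 in aged and −7.32 to −6.20 in young cells. With the filter dropped, the differences of values at or near background were −0.04 for Star, 0.26 for Lhcgr and 0.15 for Nr5a1, with limma adjusted p-values of 0.966, 0.482 and 0.802. An age difference in these 3 transcripts was not detectable at this signal.

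Fdx1, the electron carrier of CYP11A1 and of other mitochondrial enzymes, was the single gene of the 7 whose aged and young values did not overlap, an arrangement held by 14.3% of all genes tested (10.2% with every aged value above every young value). It stood at 2.33, 2.35, 2.40 and 2.36 on the aged arrays, against 2.31, 1.77, 1.91 and 1.98 on the young arrays. The aged arrays were tightly grouped, and young array 1 came close to the lowest of them. Its mean was 2.36 ± 0.03 in aged and 1.99 ± 0.23 in young cells (SD, n = 4 each). The difference of 0.37 ± 0.13 (SE; 95% interval 0.08 to 0.65; 1.29-fold) missed the threshold, with a limma p of 0.0179 unadjusted and 0.103 adjusted. Without young array 1 the difference was 0.47 and passed the test (limma adjusted p = 0.00804), as 36.9% of all genes did. With array weights Fdx1 passed it too, as 44.6% of all genes did. Under scaling to spike-in RNA it was −0.04 (limma adjusted p = 0.834).

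Scarb1, the receptor for high-density lipoprotein, had 2 probes, both above background on all arrays. The probe with the higher mean read 0.93, 0.79, 0.52 and 0.64 on the aged arrays, against 0.84, 0.71, 0.28 and 0.53 on the young arrays. The groups interleaved, and the difference of 0.13 ± 0.15 (SE; 95% interval −0.21 to 0.47) gave a limma adjusted p of 0.557. The other probe averaged −1.50 ± 0.10 in aged and −1.48 ± 0.04 in young cells (SD, n = 4 each), a difference of −0.02. Leaving out 1 array moved the difference of the first probe between 0.029 (without young array 3) and 0.22 (without young array 1), and spike-in scaling gave −0.28.

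**Figure D2:**
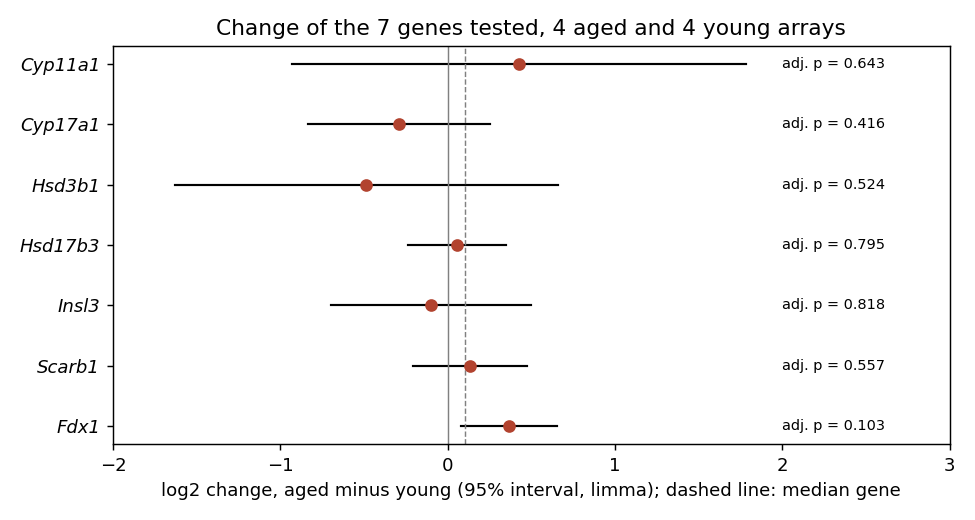
Difference in log2 signal, aged minus young, of the 7 genes tested (horizontal axis), with points for the limma estimate over 4 aged and 4 young arrays and bars for its 95% interval. The interval excludes 0 for Fdx1 alone, whose adjusted p is 0.103, and is widest for Cyp11a1 (−0.93 to 1.78) and Hsd3b1 (−1.63 to 0.66).

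The intervals show what the 8 arrays could resolve. They were narrow for Hsd17b3, Fdx1 and Scarb1 and wide for Cyp11a1 and Hsd3b1, for which a 1.5-fold change in either direction lies inside the interval. For Cyp11a1 the interval corresponds to a ratio of 0.525 to 3.44, aged over young, and for Hsd3b1 to 0.323 to 1.58. Such intervals do not show that the genes were alike at the 2 ages.

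The differences between arrays of one age were larger than those between ages for several of these genes. Over the 8 arrays the highest value exceeded the lowest 7.78-fold for Cyp11a1, a spread larger than that of 97.2% of all genes tested, although its lowest array was not above background. The spread was 4.62-fold for Hsd3b1 (92.8% of genes smaller), 2.33-fold for Cyp17a1 (82.1%) and 2.24-fold for Insl3 (80.9%). For Scarb1 it was 1.57-fold (43.8%), for Fdx1 1.54-fold (40.0%) and for Hsd17b3 1.39-fold (16.5%).

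The mean of the 5 restricted genes tested (Cyp11a1, Cyp17a1, Hsd3b1, Hsd17b3 and Insl3), each centred on its own mean over the 8 arrays, was 0.14, −0.74, 0.41 and 0.03 on the aged arrays and −0.74, −0.07, 0.40 and 0.57 on the young arrays. Aged array 2 and young array 1 were the lowest of their groups and equal to 2 decimals. Over the other arrays the mean was 0.19 in aged and 0.30 in young cells. Fdx1 and the brighter probe of Scarb1, which has 1 spot, were not low on these 2 arrays. The other Scarb1 probe was lowest of the young arrays on young array 1 (−1.51), though its young values spanned only 0.084.

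**Figure D3:**
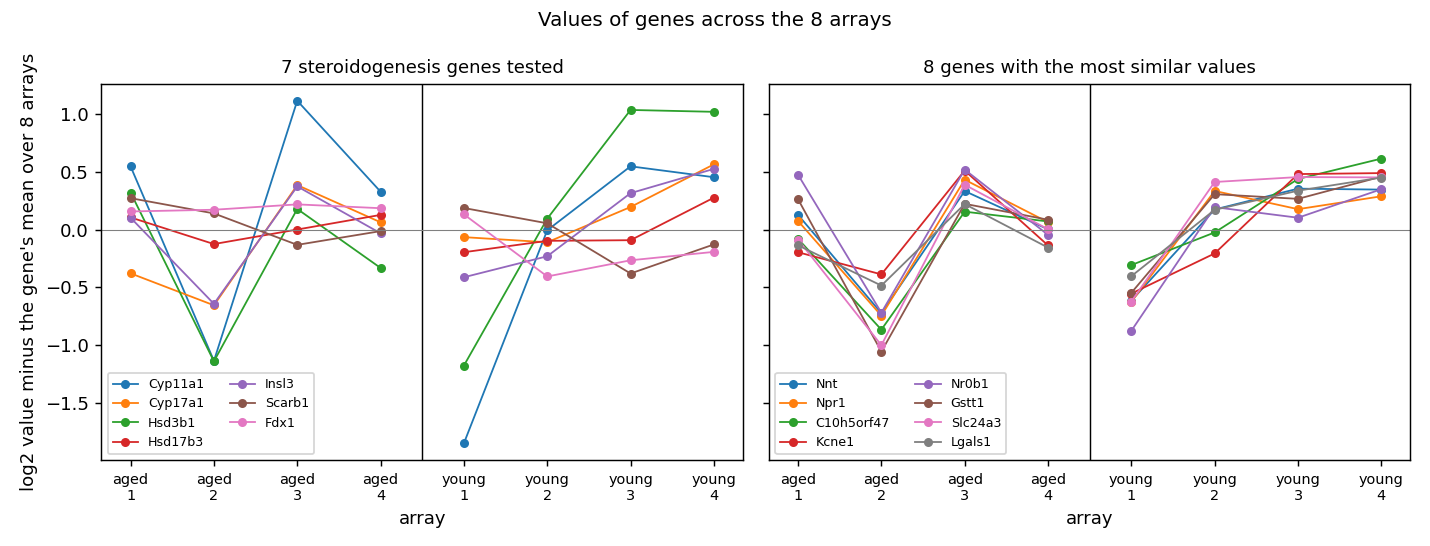
Log2 value of each gene minus its mean over the 8 arrays (vertical axis) on aged arrays 1 to 4 and young arrays 1 to 4 (horizontal axis), for the 7 steroidogenesis genes tested (left) and the 8 genes with the most similar values (right). Cyp11a1 and Hsd3b1 dip on aged array 2 and young array 1, as do the 8 genes on the right, whereas Fdx1 and the brighter probe of Scarb1 do not.

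The 8 genes outside the set described next had the smallest root mean square difference from that mean over the 8 arrays, each centred in the same way. Nnt, a mitochondrial transhydrogenase that supplies NADPH, was nearest (0.129 log2), followed by the natriuretic peptide receptor Npr1 (0.197), C10h5orf47 (0.201), the potassium channel subunit Kcne1 (0.206), the orphan nuclear receptor Nr0b1, also known as DAX1 (0.210), the glutathione transferase Gstt1 (0.212), the sodium, potassium and calcium exchanger Slc24a3 (0.218) and the galectin Lgals1 (0.224). Nnt measured −2.02, −2.87, −1.81 and −2.14 on the aged arrays and −2.76, −1.97, −1.79 and −1.80 on the young arrays. None of the 8 passed the test between ages, with limma adjusted p-values of 0.371 to 0.852. These genes were picked from the whole table for their likeness over 8 arrays, which is a description.

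The centred means of gene lists of other testis cell types were also at their lowest within each group on aged array 2 and young array 1. This held for the peritubular myoid and stromal, macrophage, Sertoli, endothelial and spermatid lists. The summed level of the Sertoli list was nonetheless the highest of each group there. That sum is mostly the signal of 1 gene, Shbg, which read 7.57 on aged array 2 and 7.02 on young array 1. Summed levels are in multiples of the array's 75th percentile signal and weigh the brightest probes most. Because probes are not on one scale, these sums do not compare one list with another. The summed level of the 5 restricted genes, of which Insl3 was the brightest, ran from 0.894 to 1.88 in aged and from 1.02 to 2.16 in young cells. For 13 of 15 stromal genes tested it ran from 3.70 to 7.0 in aged and from 5.60 to 23.4 in young cells, with Lum above background on 0 arrays. For 12 of 15 macrophage genes it was 6.31 to 18.8 in aged and 9.22 to 28.7 in young cells, with Itgam on 0 arrays. For 9 of 16 Sertoli genes it was 135 to 196 in aged and 113 to 134 in young cells, with Abcb1a above background on 0 arrays. For 7 of 12 endothelial genes it was 1.30 to 1.56 in aged and 1.52 to 1.80 in young cells, with Tek on 0 arrays. For 15 of 16 spermatid genes it was 248 to 499.7 in aged and 338 to 835 in young cells. The undifferentiated spermatogonia list instead had its highest mean on young array 1 (0.23) and its lowest on aged array 2 (−0.14), each gene centred as before. The part of these cell types in the values of the steroidogenesis genes was not tested.

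Some genes were below background on aged array 2 and young array 1 together, and above it on the other 6 arrays. They included Hsd3b3, Hsd17b1, Gata4 and Wt1 of the transcription regulator list, and Cldn11 of the Sertoli list. Standing in a list does not assign these genes to a single cell type. Of 173 named probes above background on exactly 3 aged and 3 young arrays, 64 (37.0%) were missing on that pair of arrays.

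**Figure D4:**
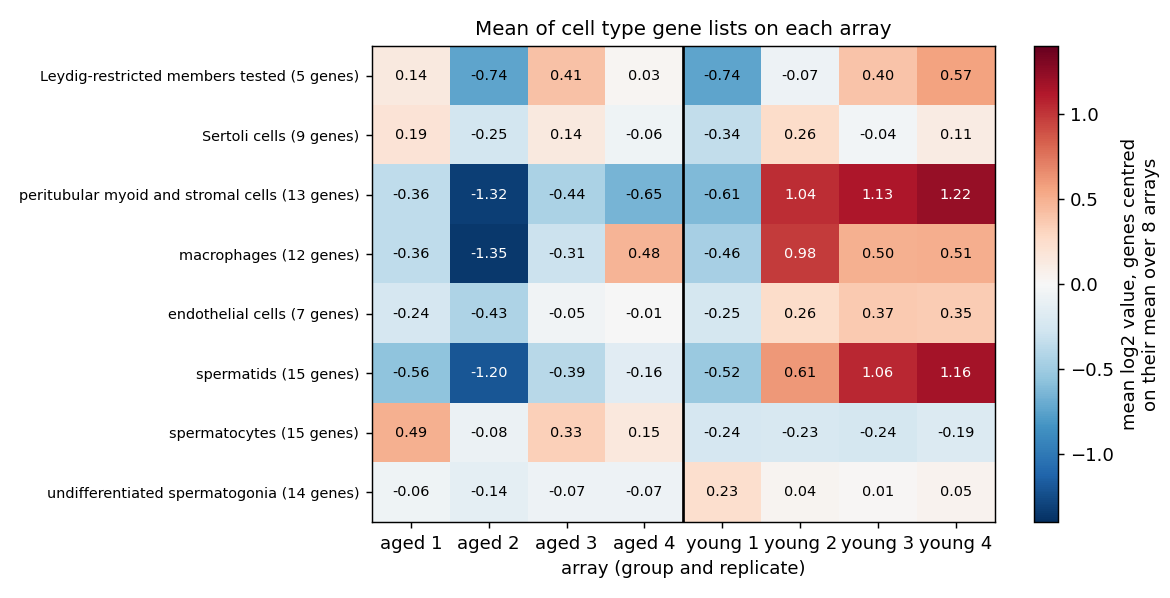
Mean log2 value of gene lists on each array (columns; aged left of the line, young right), with the mean of each gene set to 0, and red above and blue below 0. The 5 steroidogenesis genes at the top are at −0.74 on aged array 2 and on young array 1, and the centred means of the stromal, macrophage, Sertoli, endothelial and spermatid lists are also at their lowest of each group there, although the summed level of the Sertoli list, mostly that of Shbg, is not.

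Partners and paralogs of the steroidogenic enzymes were tested alongside, and 0 of 7 passed the test. Without young array 1, 2 of them rose, Fdxr and Fdx2 (limma adjusted p = 0.00948 and 0.0255). In that setting 2282 of all 10236 genes tested rose, and 36.9% were called in either direction. Fdxr, the reductase that feeds electrons to FDX1, read 2.33, 2.50, 2.26 and 2.07 on the aged arrays, against 1.88, 1.77, 1.48 and 1.68 on the young arrays. Like Fdx1, it was higher on every aged array than on any young array, as were 10.2% of all genes. The difference of 0.59 ± 0.13 (SE) had a limma adjusted p of 0.0561, and it passed the test in 6 of 24 alternatives. Those 6 called 270 to 4564 genes in the whole table, and 1 of them only raised the threshold to 0.1. Fdx2, a paralog of Fdx1 that serves iron-sulphur cluster assembly, differed by 0.24 ± 0.12 (limma adjusted p = 0.204), and the cytochromes b5 Cyb5a and Cyb5b by −0.12 ± 0.12 and 0.19 ± 0.20 (limma adjusted p = 0.530 and 0.531).

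Among 14 tested genes of other steroid metabolism, 1 rose and 0 fell, against 0.498% and 0.156% of all genes. Without young array 1, 5 rose, against 2282 of all 10236 genes tested. The gene called with all arrays was Sts, the steroid sulphatase that frees steroids from their sulphate esters. It stood at 1.11, 1.07, 0.998 and 0.88 on the aged arrays, against 0.55, 0.31, 0.26 and 0.25 on the young arrays. The groups did not overlap, as in 10.2% of all genes with every aged value higher. The difference of 0.67 ± 0.11 (SE) passed the test with a limma adjusted p of 0.0465, close to the threshold. It lost the call in 12 of 24 alternatives, 7 of which left out 1 array, with adjusted p-values of 0.00147 to 0.272 over all of them and a positive difference in each.

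Supply of cholesterol showed no called change: 0 of 16 tested genes of cholesterol transport and storage and 0 of 22 of cholesterol synthesis passed the test, with 8 and 12 of them lower in the aged mean and medians of −0.01 and −0.02. In the transport list the smallest p-values belonged to the lysosomal lipase Lipa (−0.48 ± 0.17), the hormone-sensitive lipase Lipe (−0.75 ± 0.30), the germ cell sterol carrier Stard6 (−0.79 ± 0.34) and Scp2 (0.27 ± 0.12), with limma adjusted p-values of 0.104 to 0.153. In the synthesis list, genes with small p-values included the farnesyl diphosphate synthase Fdps (−0.27 ± 0.09), the sterol sensor Insig1 (−0.45 ± 0.16) and the squalene synthase Fdft1 (0.41 ± 0.17), with limma adjusted p-values of 0.0962 to 0.140. Fdps and Insig1 had every aged value below every young value, as 4.12% of all genes did. Without young array 1, 4 of 16 transport and 3 of 22 synthesis genes passed the test, against 36.9% of all genes.

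**Figure D5:**
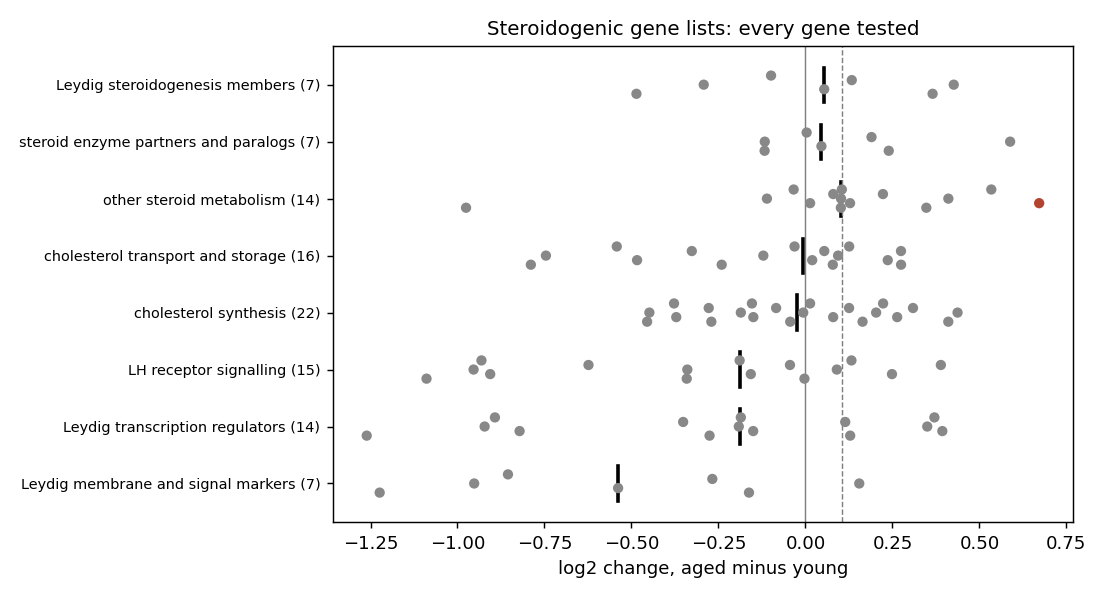
Log2 change, aged minus young (horizontal axis), of every tested gene in the steroidogenesis set and 7 related lists (rows, number tested in brackets), with a bar at each list's median, a dashed line at the median of all genes (0.11) and red for the one called gene. Sts (0.67) is that gene, and the steroidogenesis genes span −0.49 to 0.43.

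Downstream of the luteinising hormone receptor, 0 of 15 tested signalling genes passed the test and 11 had a lower aged mean, with a median of −0.19. The adenylyl cyclase Adcy5 (−0.62 ± 0.15), the cyclic AMP-responsive regulator Crem (−1.09 ± 0.34), the protein kinase A catalytic subunit Prkaca (0.39 ± 0.12) and its regulatory subunit Prkar1b (−0.34 ± 0.12) had the smallest p-values, with limma adjusted p of 0.0596 to 0.104. Without young array 1, 8 of the 15 passed the test, 2 higher and 6 lower, these 4 among them. In that setting 36.9% of all genes passed it. The value of Crem rests on 1 probe: over the mean of its probes the difference was −0.31 (limma adjusted p = 0.321).

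Of 14 tested regulators of Leydig cell transcription, 0 passed the test and 9 had a lower aged mean (median −0.19). Without young array 1, 7 passed it, 2 higher and 5 lower, against 36.9% of all genes. Nr4a1, an orphan receptor that luteinising hormone induces in Leydig cells, came nearest to the threshold. It read −2.22, −2.82, −2.62 and −2.94 on the aged arrays, against −2.11, −1.01, −1.30 and −1.12 on the young arrays. Every aged value lay below every young value, as in 4.12% of all genes. The difference of −1.26 ± 0.25 (SE, limma adjusted p = 0.0539) passed the test in 6 of 24 alternatives. Those 6 called 270 to 4564 genes in the whole table, and 1 of them only raised the threshold to 0.1. Nr5a2, a relative of Nr5a1, differed by −0.89 ± 0.24, the glucocorticoid receptor Nr3c1 by 0.37 ± 0.11 and Nr2f2, found in stem Leydig and stromal cells, by −0.82 ± 0.27 (limma adjusted p = 0.0715, 0.0788 and 0.0906).

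Membrane and signal markers that Leydig cells share with other interstitial cells were lower in the aged mean for 6 of 7 tested genes (median −0.54). Of these 7, 0 passed the test. Without young array 1, 4 passed it, against 36.9% of all genes. Kitlg, the ligand of the KIT receptor, differed by −0.85 ± 0.27, Pdgfra by −0.95 ± 0.36, Fgfr1 by −0.54 ± 0.26 and Igf1 by −1.22 ± 0.61, with limma adjusted p-values of 0.0859 to 0.197. Igf1 read 0.23, −1.59, 0.18 and 0.27 on the aged arrays, against −0.76, 1.46, 1.66 and 1.62 on the young arrays. Its lowest arrays were again aged 2 and young 1.

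Across the series, the 75th percentile signal ran from 331 to 524 on aged and from 326 to 503 on young arrays, 63.0% to 69.2% of probes on aged and 65.4% to 72.0% on young arrays were well above background, and 0 spots were saturated. All 8 arrays lay on 1 slide with the aged arrays in one row and the young arrays in the other, so position on the slide and age cannot be told apart. Of the 67 genes called over the whole table, 51 were higher and 16 lower in aged cells.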

How the data were processed

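RNA of CD9-positive testis cells was measured on 8 one-colour arrays, 4 of aged and 4 of young rats, grouped by the sample titles. Per the labels' protocols, 18 ng of total RNA per sample was amplified linearly and labelled with Cy3. Images were read with Agilent Feature Extraction, version 10.7.3.1 per the file headers and 12.5 per the submitters' processing notes. Its deposited processed signal is a linear intensity after subtraction of background and spatial detrending, per the file headers. Median spot and background signals are deposited as raw intensity values, and other deposited columns are flags of 0 or 1.

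The authors' deposited log2 table differed from log2 processed signals by a constant per array, within 0.0040 of the 75th percentile used here, over 12607 bright probes, and was centred on each probe's median. Its scale and direction were settled by that comparison. Its column medians were −0.02, 0.05, 0.07 and −0.0029 for aged arrays 1 to 4 and 0.09, −0.07, −0.14 and −0.06 for young arrays 1 to 4. It served as an alternative.

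Control and outlier spots were left out, spots of a probe were averaged as log2 values, and each array's 75th percentile over non-control probes was subtracted. Probes were named by unversioned accession through the RefSeq table of GRCr8, used for names only; 17998 of 30367 probes matched. Probes stayed in where, in 1 group or both, each array had a share of 0.5 or more of their spots flagged well above background, with 2 or more values a group, and the probe with the highest mean stood for a gene. The 10236 genes were tested with limma 3.58.1 in R 4.3.3 (lmFit and eBayes, two-sided, Benjamini-Hochberg over all genes tested), and adjusted p-values come from this fit unless another setting is named beside them. The procedure was tested on simulated data. The number of arrays limits the precision.

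The genes, lists and tests were chosen with earlier results of these data known. The text names every member, the called genes of each pathway list or otherwise up to 4 genes with the smallest p, the 8 genes most like the members, and Cd9, Zbtb16, Gfra1, Id4 and Ddx4. A gene this rule named is not reported here. Cell type lists are given as counts and means. Hsd17b7 stands in 2 pathway lists. Alternatives covered scaling, background correction, filters, probes, weights, variance model, replicate block, threshold and leaving out each array; the percentile taken over spots was added after the data had been seen.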

Additional observations from a re-analysis of the deposited data

Results flagged for a closer look

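A check covered 104 sets of 4 arrays of one age, for genes named in the text. In 12 of them a single array was set apart from the other 3. The share of the range was larger than Dixon's critical value for 4 values allows. Chance gives about 1 in 20 only for independent genes picked without regard to their values. Some genes here were picked for likeness to a mean that is low on aged array 2 and young array 1. Others were picked after their values had been seen, so that rate does not apply to the 12. All values here are log2 signals relative to the array's 75th percentile.

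Aged array 2 was far below the other aged arrays for Igf1 (−1.59, next 0.18), Vcam1 (−5.07, not well above background there, next −2.99), Gstt1 (−3.91, next −2.77) and Kitlg (−3.97, next −3.25). Young array 1 was far below the other young arrays for Igf1 (−0.76, next 1.46), Vcam1 (−4.56, next −2.75), Pdgfra (−3.35, next −1.96), Slc24a3 (−3.50, next −2.47) and Npr1 (−1.86, next −1.06). The same young array was far above the others for Fdx2 (2.45, next 2.12) and Zbtb16 (−1.72, next −2.37). Aged array 3 stood above the other aged arrays for the second probe of Scarb1 (−1.35, next −1.52). Of the steroidogenesis genes, that probe was the one set apart in this way; the low values of Cyp11a1, Hsd3b1 and Insl3 on aged array 2 and young array 1 stayed under the limit.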

How the results depend on the processing

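Over 24 alternatives, 0 of the 7 steroidogenesis genes were called in 22, and Fdx1 was called with array weights (1 gene; 0.45, limma adjusted p = 0.00476) and without young array 1; leaving out each array gave 0 to 1. Adjusted p-values of Fdx1 ran from 0.00476 to 0.834. The count of members with a lower aged mean was 6 with spike-in scaling and 2 to 5 without single arrays. The count of called genes in the whole table, 67, was 1330 with median scaling, 630 with normexp background, 270 with trended robust variance, 1674 at a threshold of 0.1, 4564 with array weights and 0 without scaling, with spike-in scaling, without the filter, with unnamed probes or with the replicate block; leaving out each array gave 0 to 3776 (3776 without young array 1, at most 1 without any other). At an unadjusted p under 0.05 it was 1389 to 5540 over all of them. The causes were not tested. Spike-in scaling moved the median gene to −0.30 and median scaling to 0.26.

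Signs turned under these settings, none of them called on either side. Under spike-in scaling the differences were Fdx1 −0.043, Hsd17b3 −0.35, Scarb1 −0.28, Fdx2 −0.17, Cyb5b −0.22, Nr0b1 −0.29, Nr3c1 −0.038, Prkaca −0.019, Scp2 −0.13 and Cyp21a1 −0.33. Under median scaling they were Insl3 0.056, Cyb5a 0.038, Kcne1 0.050, Nnt 0.025, Npr1 0.068, Zbtb16 0.061 and Cyp11b2 0.12. Quantile scaling gave Kcne1 0.074, Zbtb16 0.039 and Cyp11b2 0.15, normexp gave Cyp11b2 0.050 and Cyp21a1 −0.0050, array weights gave Hsd17b3 −0.021, Nr0b1 −0.021 and Zbtb16 0.080, and the percentile over spots gave Hsd17b3 −0.00028. Leaving out each array turned signs within ranges of −0.12 to 0.88 for Cyp11a1, −0.0022 to 0.16 for Hsd17b3, −0.25 to 0.10 for Insl3, −0.46 to 0.070 for Gstt1, −0.31 to 0.041 for Kcne1, −0.36 to 0.089 for Nnt, −0.31 to 0.15 for Npr1, −0.16 to 0.37 for Nr0b1, −0.17 to 0.078 for Zbtb16, −0.74 to 0.28 for Vcam1, −0.0060 to 0.25 for Cyp21a1 and −0.12 to 0.12 for Cyp11b2. Over all 24 alternatives the difference of Nr0b1 ran from −0.29 to 1.10, with limma adjusted p-values of 0.262 or more. The replicate block called 0 genes and changed no member's call. The numbers were not taken to pair the samples. Deviations of same-numbered aged and young arrays from their group means correlated across genes at −0.26, −0.12, 0.44 and 0.35. The highest correlation was that of aged array 2 with young array 1 (0.69). Such correlations of values centred within each group cannot settle whether samples were paired. Dim signal limits Star, Lhcgr and Nr5a1, and the stricter filter, which needs all 8 arrays above background, left out Cyp11a1.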

Other observations

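The genes of the next sentences were chosen after their values had been seen. Hsd11b1, the enzyme that regenerates glucocorticoid and is abundant in rat Leydig cells, read −2.51, −4.95, −3.26 and −2.93 on the aged arrays, against −3.77, −2.29, −1.93 and −1.75 on the young arrays. Vcam1, an adhesion molecule of Leydig and other interstitial cells, read −2.76, −5.07, −2.87 and −2.99 on the aged arrays, against −4.56, −2.74, −2.57 and −2.75 on the young arrays. Neither was well above background on aged array 2. Both were lowest on that array and young array 1, as Cyp11a1 and Hsd3b1 were, and neither passed the test between ages (limma adjusted p = 0.269 and 0.777).

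Enzymes better known from the adrenal gland were also above background. Cyp21a1, the steroid 21-hydroxylase, was so on 4 aged and 4 young arrays, with values of −1.99, −1.90, −1.98 and −2.12 on the aged arrays and −1.58, −2.12, −2.33 and −2.27 on the young arrays. Cyp11b2, the aldosterone synthase, was above background on 3 aged and 4 young arrays, at −4.51, −4.77, −5.22 and −4.57 on the aged arrays and −4.36, −4.74, −4.95 and −4.89 on the young arrays. Young array 1 held the highest young value of both, unlike the pattern of Cyp11a1 and Hsd3b1. Neither differed between ages at the threshold (limma adjusted p = 0.764 and 0.916), and which sequences these probes bind was not examined.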
